A study of Mus musculus with 12 samples.

Results

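Chromatin regions with a peak in every ERα and PR library and lying at the start or end of a protein-coding gene were examined in mouse mammary glands. Overlapping peaks of 8 libraries merged into 321963 regions, of which 12113 had a peak in all 8 lists and 11983 of these were autosomal. The gene-end regions were those whose midpoint lay within 1 kb of the start or end of a coding gene, and 5346 of the 11983 met that limit. The other 6637 lay farther away and are called distal here. The regions were thus chosen by the presence of a peak in each library, so presence itself is a description, and the results below concern rank, position, sequence and the identity of the genes.

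The libraries came from mice whose Esr1, the gene of ERα, carries Y541S, an amino acid change within the domain that binds ligand, and from mice with wild-type Esr1 (WT). All animals were 8 weeks old and carried estradiol and progesterone implants for 4 days, so both genotypes were measured under both hormones and none without them. For each genotype 2 libraries were made with an antibody to ERα and 2 with an antibody to PR, and the 4 libraries of the D542G mutation were not analysed here. The tissue was labelled as whole mammary gland although the series title speaks of luminal cells. Whole glands hold fat, stromal and immune cells besides the epithelium. A peak carries no record of its cell of origin, and fewer binding cells cannot be told apart from less binding per cell. Nothing in the labels says whether ERα and PR libraries of one replicate number shared chromatin, or how many animals each library held.

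ERα and PR are hormone-activated transcription factors. They bind DNA directly, ERα at estrogen response elements and PR at progesterone response elements, or indirectly through other DNA-bound factors, and in mammary epithelium most of their binding is known from enhancers far from genes. Promoters of broadly expressed genes are typically rich in CpG, open in most cell types, and bound by factors such as the ETS family, SP and KLF proteins, NRF1 and YY1.

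The following stretches show 3 promoter elements in gene-end regions that ranked differently for the receptors, as described further on. Sequences are from RefSeq on GRCm38.p6, the assembly equivalent to mm10, read 5′ to 3′ along the gene, each 80 bases and upstream of the annotated start. In the first 2 the capitals mark the progesterone response element GNACANNNTGTNC (PRE). Both belong to regions that ranked higher for PR. Among promoters of that class whose sequence was at hand, they were the only ones holding the element.
Mt1, chr8:94178961-94179040, + strand: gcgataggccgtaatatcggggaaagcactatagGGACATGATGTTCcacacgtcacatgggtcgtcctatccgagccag
Atf7ip, chr6:136518727-136518806, + strand: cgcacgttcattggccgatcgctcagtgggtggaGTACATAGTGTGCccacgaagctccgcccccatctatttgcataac
In the next 3 the capitals mark GGTCA, which is one arm of the estrogen response element, or its complement TGACC. Among promoters whose sequence was at hand and holds the element upstream of the start, they have the largest ERα-over-PR shifts in rank.
Nrip1, chr16:76373863-76373942, - strand: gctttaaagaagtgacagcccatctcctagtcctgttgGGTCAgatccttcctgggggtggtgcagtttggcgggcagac
Uqcc3, chr19:8881027-8881106, - strand: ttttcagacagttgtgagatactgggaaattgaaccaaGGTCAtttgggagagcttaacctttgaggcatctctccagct
Irf4, chr13:30749024-30749103, + strand: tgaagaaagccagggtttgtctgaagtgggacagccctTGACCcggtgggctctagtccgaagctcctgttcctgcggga
In the last one the capitals mark CCGGAAG, the ETS element, in the promoter of a ribosomal protein gene that ranked higher for ERα.
Rps6, chr4:86857416-86857495, - strand: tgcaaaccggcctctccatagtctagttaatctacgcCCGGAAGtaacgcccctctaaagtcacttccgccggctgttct

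The PRE of Mt1, a metal-binding metallothionein induced by glucocorticoids and progestins, began 94 bases before the start, and that of Atf7ip, a chromatin-associated cofactor, 90 bases before it. The ETS element of Rps6 began 91 bases before its start.

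Promoter windows ran from 250 bases before to 50 bases after each start, and 5323 of 20085 windows of autosomal coding genes overlapped a gene-end region by at least 150 bp. The table of windows held none for chromosome 18 or for other genes without a known strand. Thus 16457 of 20665 autosomal coding genes had a window. Windows in the gene-end regions had a median GC content of 61.3%, against 57% for all windows. Their median ratio of observed to expected CpG was 0.823, against 0.586, and the ratio exceeded 0.6 in 85.4% of them, against 48.9% of all windows. The promoters at these regions were thus mostly of the CpG-rich kind.

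Elements of general promoter factors were more frequent in the gene-end regions. The ETS element CCGGAAG was present in 25.7% of their windows and in 11.9% of all windows, counting both strands. The GC box GGGCGG, bound by SP and KLF factors, was present in 68.4% against 47.0%. NRF1 (GCGCATGCGC) was found in 3.33% against 1.34%, YY1 (AAGATGGCG) in 4.36% against 1.83% and the cyclic AMP response element TGACGTCA in 4.55% against 2.3%. The E-box CACGTG was in 11.9% against 7.89%, and the CCAAT box in 42.1% against 38.1%. These shares are descriptions, and the part of the higher GC content in them was not tested.

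Hormone receptor elements were not more frequent there. The full estrogen response element GGTCANNNTGACC was in 0 of the 5323 windows and in 11 of all 20085, while the GGTCA arm alone, which the full element contains, was in 37.9% against 39.7%. The PRE was in 15 of the 5323 windows (0.282%) and in 92 of all (0.458%). TGANTCA, the AP-1 element, was in 4.13% against 7.06%, and TGTTTAC, which FOXA pioneer factors bind, in 2.37% against 3.04%. A window without these letters shows only that this exact spelling is absent from its 300 bases.

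Presence in all 8 libraries went with position at gene ends. Of autosomal regions with a peak in 1 library, 5.09% lay within 1 kb of a gene start or end. The share was 7.01% for 2 libraries, 7.07% for 3, 6.91% for 4, 8.83% for 5, 12.1% for 6 and 22.5% for 7, and it reached 44.6% for all 8. The gene-end share was nearly flat from 2 to 4 libraries, and the steps to 7 and to 8 libraries were the largest. Peaks in all lists are also the stronger ones in each list, and the part of peak strength in this gradient was not tested.

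**Figure D1:**
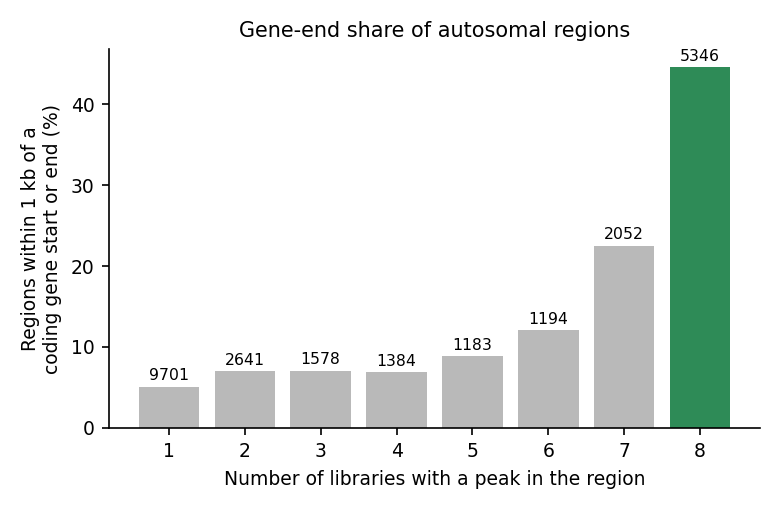
Share of autosomal regions (%) with a midpoint within 1 kb of a coding gene start or end, by the number of libraries with a peak in the region, with the number of gene-end regions above each bar. The share is 5.09% for regions in 1 library and 44.6% for those in all 8, the 5346 gene-end regions described here (green).

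Most gene-end regions lay at starts. Strand was known for 16457 of 20665 autosomal coding genes. By these, 4006 regions (74.9%) were within 1 kb of a start and of no end, 120 (2.24%) of an end and of no start, and 186 (3.48%) of both, while for 859 (16.1%) the strand of the gene was not in the table. At 616 regions (11.5%) starts of genes on both strands lay within 1 kb, as at divergent promoters. The regions lay at 1 gene in 4306 cases, at 2 genes in 1023 and at 3 in 17. In all, 6229 of 20665 coding genes (30.1%) had a gene-end region, from 24.8% on chromosome 7 to 36.3% on chromosome 19. Counting starts, 4959 genes (30.1% of those with strand) had one, and counting ends, 361 (2.19%).

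The gene-end regions were wider than the distal ones, with a median of 1170 bp (quartiles 977 and 1403 bp) against 892 bp. Of them 79.8% overlapped the promoter window of a gene of any kind, against 11.7% of the distal regions. At the limit itself, the last regions inside had midpoints 994.5 bp from a gene end at Greb1, 997 bp at Ttyh3 and 1000 bp at Ecsit, and the first outside were 1003 bp away at BC005537 and 1004.5 bp at Itga3 and Mrpl23.

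Peak summits gathered at the start itself. In the 3396 regions with 1 gene start of known strand, the median distance between start and summit was 136 and 127 bp in the Y541S ERα libraries, 144 and 170 bp in the WT ERα libraries, 118 and 117 bp in the Y541S PR libraries, and 164 and 131 bp in the WT PR libraries. Summits within 250 bp of the start made up 65.4% to 77.4% of a library. They fell on both sides, with 48.5% to 56.2% upstream. Neither receptor kept to one side of the start, and the libraries of ERα and PR overlapped in each of these 3 values. The regions were chosen by a midpoint within 1 kb on either side, which in part fixes both the closeness and the even split.

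**Figure D2:**
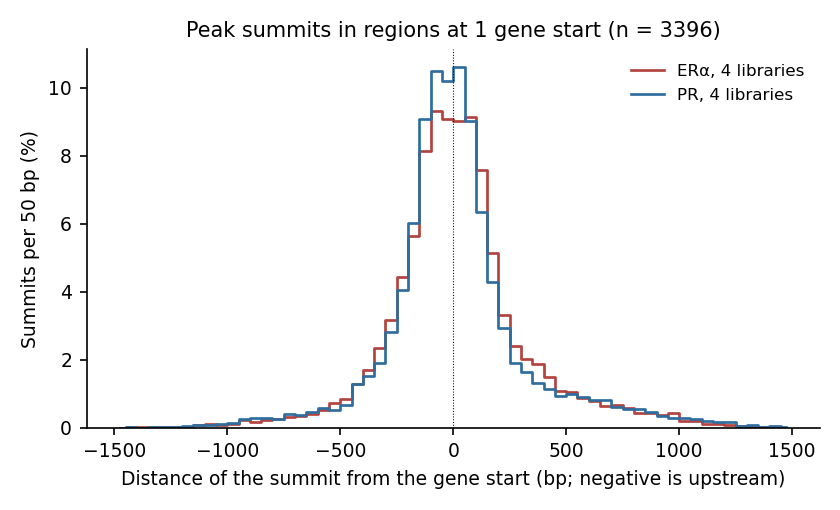
Summits (%) per 50 bp of distance from the gene start in bp (negative is upstream), pooled over the 4 ERα libraries (red) and the 4 PR libraries (blue), in 3396 regions at 1 gene start. Both curves peak at the start, and median distances per library are 117 to 170 bp.

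Within one region, summits of different libraries were close but less so than at distal regions. Between an ERα and a PR library the median spacing ran from 88 to 151 bp over 16 pairs, against 61 to 96 bp at distal regions. Between replicates of a group it ran from 65 to 129 bp over 4 pairs, against 38 to 78 bp at distal regions. The spacing between receptors at gene ends therefore overlapped that between replicates. The wider spacing goes with the wider regions.

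Genes of 6 lists of general cell functions had a gene-end region at shares well above that of all coding genes. Against the 30.1% of all coding genes, a gene-end region was found at 23 of 24 genes for heat shock and the unfolded protein response (95.8%), 24 of 28 for RNA polymerase II and general transcription (85.7%), 21 of 25 for ubiquitin and proteasome (84.0%), 25 of 32 for cytosolic ribosomal proteins (78.1%), 19 of 25 for splicing (76.0%) and 22 of 30 for the mitochondrial ribosome and respiratory chain (73.3%). Immediate early and stress-induced genes (20 of 30) and KLF and SP factors (12 of 18) both reached 66.7%. Chromatin modifiers had 17 of 31 (54.8%), the cell cycle 15 of 30, the circadian clock 11 of 22, and nuclear receptor coregulators 11 of 24 (45.8%).

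Hormone-response and cell identity genes were at or below the overall share. Of 24 estrogen-response genes 6 had a gene-end region (25%), and of 23 progestin and glucocorticoid-response genes 5 had one (21.7%). Greb1, a coactivator of ERα induced by estrogen, had a gene-end region. Esr1, Pgr, Areg (an EGF receptor ligand), Tnfsf11 (the paracrine signal RANKL) and Wnt4 (a ligand of side branching) had none. Of marker genes, 1 of 15 for hormone-sensing luminal cells had a gene-end region (Tbx3, a transcription factor of mammary development), 2 of 16 for luminal progenitor and alveolar cells (Mfge8, a milk fat globule protein, and Cd14), 1 of 16 for basal cells (Snai2, a repressor of epithelial genes), 6 of 20 for adipocytes, 0 of 20 for fibroblasts and endothelium, and 2 of 19 for immune cells (Spi1, a factor of myeloid and B cells, and Cd14, a coreceptor for bacterial lipopolysaccharide). Dgat2 and Acsl1, enzymes of fat synthesis and fatty acid activation, were among the adipocyte genes with one, and Adipoq, Fabp4 and Plin1, which mark fat cells most closely, were without. A gene without a gene-end region may still carry peaks elsewhere or in fewer libraries.

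**Figure D3:**
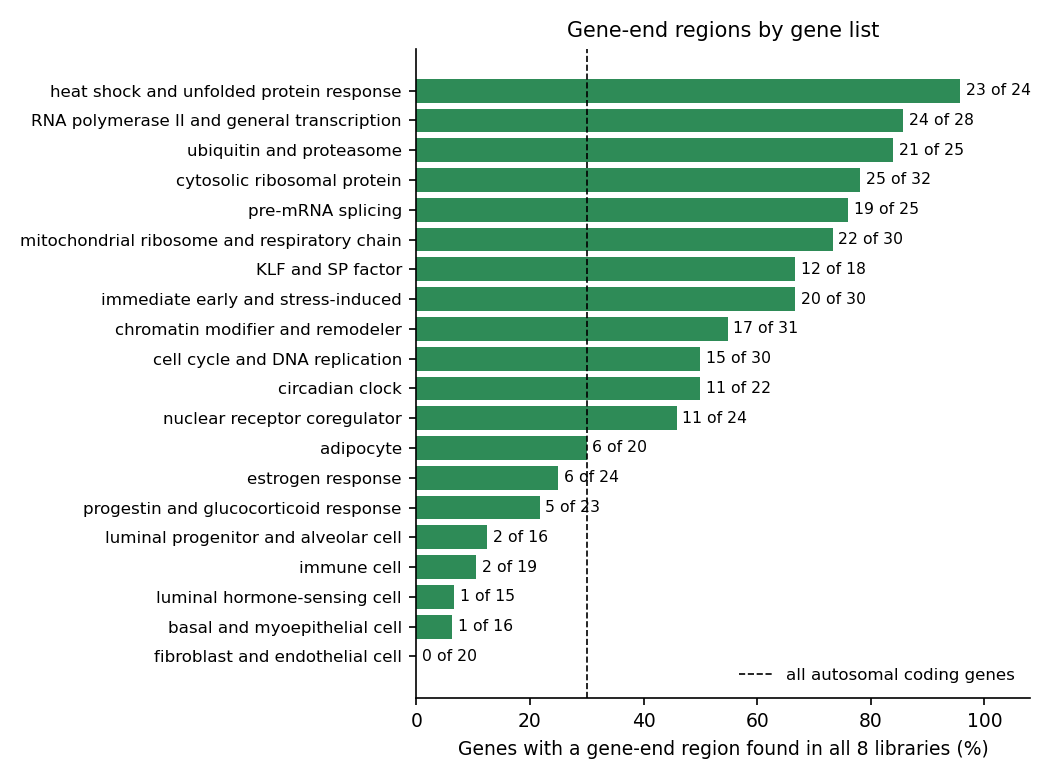
Share (%) of the genes of 20 lists with a gene-end region found in all 8 libraries, with counts beside the bars and the share of all autosomal coding genes (30.1%) as a dashed line. The 6 highest lists, all of general cell functions, reach 73.3% to 95.8%, and the markers of luminal, basal, stromal and immune cells 0% to 12.5%.

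Ranks compare the regions within each library, because peak heights were not normalised between libraries. Each of the 11983 autosomal regions with peaks in all 8 lists was ranked in each library by the largest −log10 p of its peaks, with percentile 100 for the strongest. The strongest gene-end regions over all libraries were often at gene ends and not at starts. The top one lay 199 bp from the end of the coat colour gene a (nonagouti), on chromosome 2 from 155050476 to 155051150. Its percentiles were 98.6 and 99.3 in Y541S ERα, 98.0 and 99.3 in WT ERα, 97.4 and 100 in Y541S PR, and 99.9 and 100 in WT PR. It was near the top of every library.

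Of the 10 best-ranked regions, 6 were at ends only. Besides a, these were at Tmprss12 (a serine protease), Pafah1b2 (a platelet-activating factor acetylhydrolase subunit), Fmo4 (a flavin monooxygenase), Dcst2 and Zbtb7b (a zinc-finger factor), and Lars2, the mitochondrial leucyl-tRNA synthetase, whose region of 391 bp was the narrowest of all 5346. Mad2l1, a spindle checkpoint gene, and Rpl27, a ribosomal protein gene, led the regions at starts. The percentiles of Mad2l1 were 98.7 and 98.9 in Y541S ERα, 98.8 and 99.3 in WT ERα, 91.6 and 95.7 in Y541S PR, and 96.1 and 97.2 in WT PR. Those of Rpl27 were between 92.8 and 98.8 in the 8 libraries. Klhl38, a kelch-like gene, and Skil, a repressor of TGF-β signalling, completed the 10, with gene strand not in the table. Only 5 gene-end regions were among the best 10% of the 11983 in all 8 libraries, those at a, Mad2l1, Tmprss12, Pafah1b2 and Rpl27, against 62 distal regions, and 4600 were among the best 10% in none.

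Gene-end regions took a higher median rank in most ERα libraries than in PR libraries, with overlap between the groups. Their median percentile was 50.8 and 61.3 in Y541S ERα, 47.8 and 56.2 in WT ERα, 39.0 and 48.9 in Y541S PR, and 39.0 and 46.9 in WT PR. Set against the distal regions of the same library, the difference was 2.0 and 24.0 percentile points in Y541S ERα, −5.14 and 12.9 in WT ERα, −27.1 and −2.73 in Y541S PR, and −25.3 and −7.06 in WT PR. Distal regions outranked gene-end regions in all 4 PR libraries and in 1 of 4 ERα libraries. The difference averaged 8.44 ± 12.8 in ERα and −15.6 ± 12.5 in PR libraries (SD, n = 4 each). ERα exceeded PR by 24.0 points, the groups overlapped, and the two-sided exact permutation p over 70 arrangements was 0.0571. Within replicate 1 the excess was 24.7 points and within replicate 2 it was 23.4. Between libraries of one genotype and replicate number it was 29.1 and 26.8 in Y541S and 20.2 and 19.9 in WT, positive in all 4 pairs. Swapping receptor only within these pairs gave an exact permutation p of 0.125, which 16 arrangements cannot undercut.

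The strongest peaks showed the same direction with separate groups. Of the 10000 peaks with the largest −log10 p in a library, 26.3% and 35.2% lay in gene-end regions in Y541S ERα, 18.4% and 30.7% in WT ERα, 2.2% and 10.2% in Y541S PR, and 3.0% and 9.5% in WT PR. Every ERα library exceeded every PR library. The share averaged 27.7% ± 7.16 in ERα and 6.23% ± 4.21 in PR libraries (SD, n = 4 each), a difference of 21.4 points with 0.0286 as the exact two-sided permutation p, which is the floor for 70 arrangements. It was 19.7 points within replicate 1 and 23.1 within replicate 2. With receptor swapped only between libraries of one genotype and replicate number, the exact p was 0.125, the smallest that 16 arrangements allow. Without Y541S PR replicate 1 or WT PR replicate 1 the difference was 20.1 or 20.4 points, with an exact permutation p of 0.0571 for either. Distal regions took 26.4% to 31.8% of these peaks in ERα and 21.8% to 24.0% in PR libraries.

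Replicate number moved with these values. In each group replicate 2 had the higher gene-end rank and the larger share of strongest peaks, and also the lower background coverage, 1.72 and 1.3 in Y541S and WT ERα and 1.35 and 0.927 in Y541S and WT PR, against 2.29, 2.39, 2.45 and 2.68 in replicate 1. The part of depth in this split was not tested. Both receptors were present at equal numbers in each replicate.

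**Figure D4:**
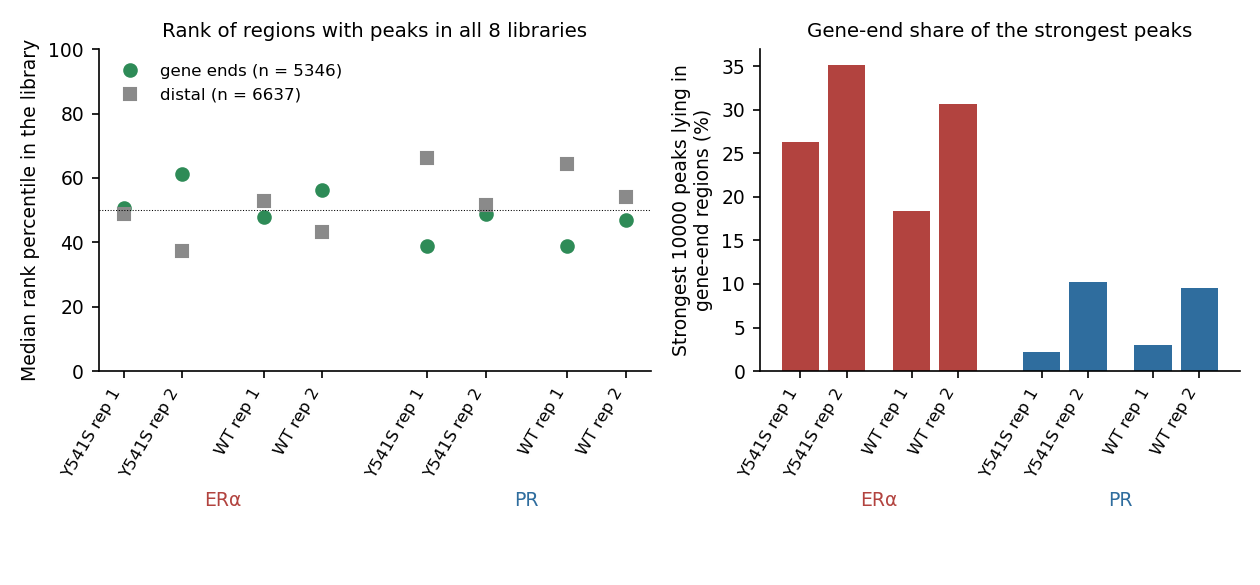
Left, median rank percentile (100 is strongest) of gene-end regions (green, n = 5346) and of distal regions (grey, n = 6637) in each library. Right, share (%) of each library's strongest 10000 peaks lying in gene-end regions, 18.4% to 35.2% in ERα (red) and 2.2% to 10.2% in PR (blue).

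A difference between receptors in the median rank of start regions against end regions was not resolved. The median percentile of start-only regions minus that of end-only regions averaged 2.07 ± 11.8 in ERα and −6.34 ± 11.7 in PR libraries (SD, n = 4 each). The difference of 8.42 points had a two-sided exact permutation p of 0.343, and it was 12.3 within replicate 1 and 4.56 within replicate 2.

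Single regions with different ranks for the receptors were found in both directions. Ranks were turned into normal scores and fitted with limma over all 11983 regions, and a shift is the mean score in ERα minus that in PR, in units of the scores' standard deviation. At a Benjamini-Hochberg adjusted p of 0.05, 365 gene-end regions (6.83%) ranked higher for ERα, where 9.86% of all regions did, and 140 (2.62%) ranked higher for PR, where 14.2% of all regions did. Among distal regions the shares were 12.3% and 23.5%. Gene-end regions were thus below the background in both directions, and further below it for PR. The median shift was 0.295 for gene-end regions and 0.137 for all regions. All 4 ERα percentiles lay above all 4 PR percentiles in 598 gene-end regions (11.2%), against 12.9% of all regions, and below them in 189 (3.54%), against 15.3%.

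These counts depended on single libraries. The number higher for ERα was 120 without Y541S PR replicate 1, 176 without Y541S ERα replicate 2, 186 without WT PR replicate 1, 200 without Y541S PR replicate 2 and 212 without WT ERα replicate 2. The number higher for PR was 77 when Y541S PR replicate 1 was left out and 89 when Y541S PR replicate 2 was. In all 8 fits that left out 1 library, 90 regions were called higher for ERα and 73 higher for PR. The 20 regions with the largest shifts, 10 in each direction, were called in every one of these fits.

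Aqp3, a water and glycerol channel of epithelia, had the largest shift towards ERα. The region at its start, on chromosome 4 from 41097364 to 41098350, had percentiles of 96.2 and 95.4 in Y541S ERα, 97.7 and 98.4 in WT ERα, 2.21 and 1.32 in Y541S PR, and 34.3 and 7.35 in WT PR. All ERα values were near the top of their libraries and all PR values in the lower part. The shift was 3.42 ± 0.34 (SE), with a limma Benjamini-Hochberg adjusted p of 0.000295.

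Htra1, a secreted serine protease, had percentiles of 99.2 and 99.5 in Y541S ERα, 99.6 and 99.7 in WT ERα, 17.1 and 31.9 in Y541S PR, and 42.3 and 20.7 in WT PR. Its shift was 3.2 ± 0.32 (SE; adjusted p 0.000295, limma). Nrip1, which encodes the corepressor RIP140 and is a known estrogen target, had percentiles of 96.4 and 97.4 in Y541S ERα, 97.2 and 96.7 in WT ERα, 5.65 and 28.6 in Y541S PR, and 4.24 and 21.1 in WT PR. In both genes every ERα value was far above every PR value. The Nrip1 promoter holds the GGTCA arm, as do 37.9% of all windows in gene-end regions. The shift of Nrip1 was 3.04 ± 0.36 (SE; adjusted p 0.000451, limma).

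The other 7 of the 10 largest shifts towards ERα, between 2.67 and 3.03, were at Epb41 and Tmem200b, Ccdc117, Sh3tc2, Uqcc3 (an assembly factor of respiratory complex III), Irf4 (a transcription factor of lymphocytes), Rpl8 (a ribosomal protein) and H4c11, a histone gene of a family with near-identical copies, whose reads may be shared among copies. Ccn5, a secreted matricellular protein induced by estrogen, had percentiles of 95.5 and 95.4 in Y541S ERα, 94.9 and 90.3 in WT ERα, 23.0 and 8.74 in Y541S PR, and 27.6 and 21.0 in WT PR. Its shift of 2.45 ± 0.31 (SE) had an adjusted p of 0.000523 in limma. Pnpla2, the adipose triglyceride lipase, had ERα percentiles of 93.3 to 96.4 and PR percentiles of 22.1 to 41.9.

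Towards PR the largest shift was at the end of Arsj, an arylsulfatase gene. The region had percentiles of 38.6 and 1.69 in Y541S ERα, 7.55 and 18.3 in WT ERα, 99.1 and 99.2 in Y541S PR, and 93.9 and 95.5 in WT PR. Its shift was −3.19 ± 0.41 (SE), with a limma Benjamini-Hochberg adjusted p of 0.000576. The end of Alg8, a glycosyltransferase of the N-glycan precursor, had percentiles of 15.7 and 2.45 in Y541S ERα, 10.8 and 16.1 in WT ERα, 96.5 and 95.8 in Y541S PR, and 93.3 and 95.4 in WT PR, a shift of −2.98 ± 0.33 (SE; adjusted p 0.00044, limma). ERα and PR values of both regions were far apart, and the replicates of Y541S ERα were the more spread for Arsj.

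Further regions of the PR-higher class were at the starts of Stx19 (a syntaxin), Sbf2, Isg20 (an interferon-induced exonuclease), Acy3 (an aminoacylase) and Lcn2 (the iron-siderophore carrier lipocalin), and at the ends of Frmd8, Dusp16 and Ngfr (the low-affinity neurotrophin receptor), with shifts between −2.92 and −2.31. Lcn2 had percentiles of 2.6 and 5.94 in Y541S ERα, 8.68 and 43.3 in WT ERα, 84.3 and 83.4 in Y541S PR, and 87.0 and 86.3 in WT PR. End-only regions made up 12.9% of the 140 PR-higher regions, 4.11% of the 365 ERα-higher regions and 1.8% of the regions not called. Seen by kind, 15.0% of the 120 end-only regions were PR-higher and 12.5% ERα-higher, against 2.15% and 6.47% of the start-only regions. Over all 11983 regions the shares were 14.2% and 9.86%, and over distal regions 23.5% and 12.3%. The end-only shares were thus near those of all regions, and the start-only shares lay below them.

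Hormone-response genes were found on both sides. Greb1, whose region 994.5 bp from its start on chromosome 12 spanned 16802035 to 16802742, had percentiles of 46.6 and 65.9 in Y541S ERα, 32.9 and 66.8 in WT ERα, 89.8 and 91.9 in Y541S PR, and 95.3 and 94.0 in WT PR. The region of this estrogen target thus ranked higher for PR, with a shift of −1.4 ± 0.33 (SE; adjusted p 0.0115, limma). Mt1 had percentiles of 80.9 and 53.5 in Y541S ERα, 64.1 and 83.6 in WT ERα, 93.8 and 95.4 in Y541S PR, and 97.2 and 96.1 in WT PR. Its shift was −1.15 ± 0.33 (SE; adjusted p 0.0283, limma), and its neighbour Mt2 had −1.06 ± 0.35 (SE; adjusted p 0.0497, limma). Unlike that of Greb1, the calls of Mt1 and Mt2 were not kept in every fit that left out 1 library. Of the 6 estrogen-response genes 2 were ERα-higher and 1 PR-higher, and of the 5 progestin and glucocorticoid-response genes 0 were ERα-higher and 2 PR-higher. The shares over all gene-end regions were 6.83% and 2.62%, and over all regions 9.86% and 14.2%. Among coregulators, a region at the end of Sulf2, a sulfatase, and within 1 kb of one boundary of Ncoa3, a steroid receptor coactivator whose strand was not in the table, had ERα percentiles of 7.47 to 35.9 and PR percentiles of 78.4 to 88.5.

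Regions at cytosolic ribosomal protein genes leaned to ERα. Of their 27 regions 11 were ERα-higher and 0 PR-higher, and their median shift was 0.738, against 0.295 for all gene-end regions. Over all gene-end regions 6.83% were ERα-higher and 2.62% PR-higher, and over all regions 9.86% and 14.2%. Rpl8 had percentiles of 89.8 and 93.9 in Y541S ERα, 88.6 and 90.4 in WT ERα, 9.9 and 6.22 in Y541S PR, and 8.27 and 5.32 in WT PR. Rps6, the ribosomal protein phosphorylated by S6 kinase, had 93.9 and 94.3 in Y541S ERα, 84.8 and 90.1 in WT ERα, 26.0 and 73.6 in Y541S PR, and 24.2 and 60.6 in WT PR. The PR values of Rps6 were thus spread between replicates, and Rpl27, near the top for both receptors, had a shift of −0.13 ± 0.31 (SE; adjusted p 0.805, limma). The calls of Rpl8 and Rpl11 were kept in all 8 fits that left out 1 library, and that of Rps6 was not.

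Other lists of general functions had few calls, at shares that can be read against the 6.83% of all gene-end regions and the 9.86% of all regions that were ERα-higher. The heat shock and unfolded protein response list had 4 ERα-higher regions of 23, at Hspa5 (the chaperone BiP), Herpud1, Hspa1b and the shared promoter of Hspd1 and Hspe1, and a median shift of 0.564. The mitochondrial list had 3 of 23 and a median of 0.521, splicing 2 of 20, general transcription 1 of 25 and the proteasome 0 of 22, none of them with a PR-higher region. None of the calls of the heat shock, mitochondrial, splicing and general transcription lists was kept in all 8 fits that left out 1 library. Chromatin modifiers had 1 in each direction among 19, and immediate early genes and KLF and SP factors 0 in either. Ube2d3, a ubiquitin-conjugating enzyme, had ERα percentiles of 53.3 to 88.1 and PR percentiles of 40.7 to 69.5, and Klf2, a zinc-finger transcription factor, had 46.3 to 65.0 for ERα and 57.7 to 74.3 for PR.

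The promoter letters of the receptor classes differed in part. Windows lay in 281 of the 365 ERα-higher regions and in 76 of the 140 PR-higher regions, and the others were not searched. The GGTCA arm was in 43.1% of the 357 windows in ERα-higher regions, 20.5% of the 88 windows in PR-higher regions and 37.8% of the windows in regions not called. The ETS element was in 26.6%, 10.2% and 25.9% of them, and the GC box in 60.5%, 73.9% and 68.9%. A PRE was in 0 of the 357 ERα-higher windows and in 2 of the 88 PR-higher windows, those of Mt1 and Atf7ip. A CpG ratio above 0.6 was found in 82.6%, 63.6% and 86.0%. The windows of the PR-higher class were thus poorer in CpG and in the ETS element. These are descriptions without a test.

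**Figure D5:**
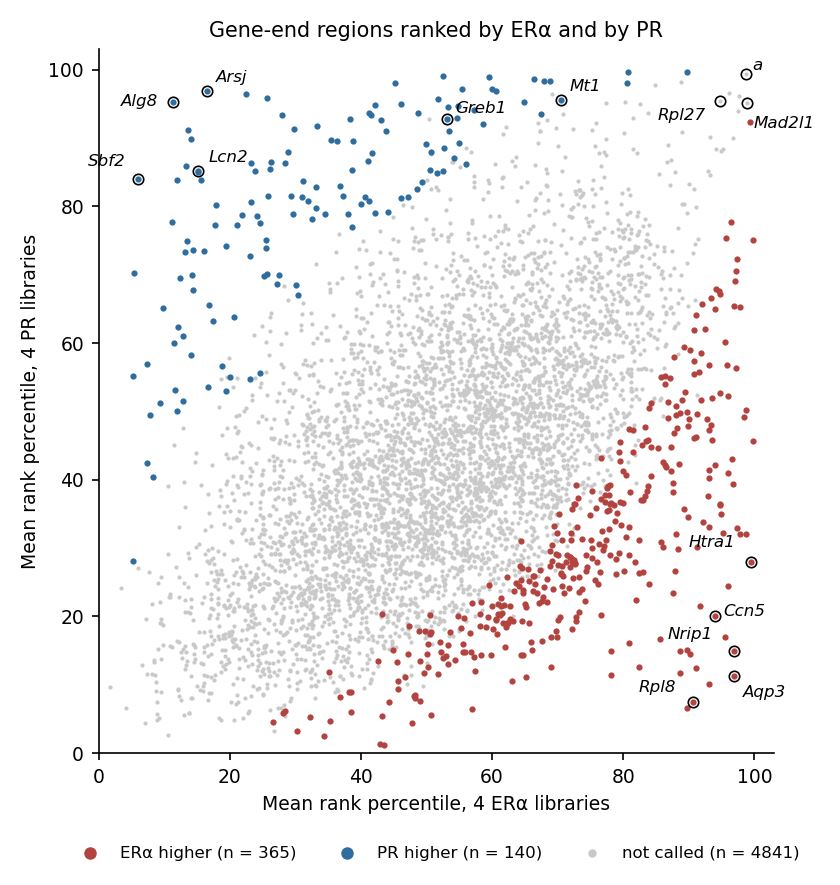
Mean rank percentile over the 4 PR libraries against that over the 4 ERα libraries for 5346 gene-end regions, coloured by the limma call (365 ERα-higher in red, 140 PR-higher in blue, 4841 not called in grey). Aqp3, Htra1, Nrip1, Ccn5 and Rpl8 lie at the lower right, Arsj, Alg8, Lcn2 and Sbf2 at the upper left, and a, Mad2l1 and Rpl27 at the top right.

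Ranks of the gene-end regions were more alike within a receptor than between receptors. Spearman's rho across these regions was 0.162 to 0.358 for 16 pairs of an ERα and a PR library, 0.376 to 0.527 for 8 pairs of a Y541S and a WT library of one receptor, and 0.377 to 0.624 for 4 pairs of replicates. The ranges for genotype pairs and replicate pairs overlapped, and that for receptor pairs lay below both. All pairs share the same regions, and these values are a description. Of the 5346 gene-end regions, 58 were among the best 10% of the 11983 in all 4 ERα libraries and 43 in all 4 PR libraries. The matching counts over distal or all regions are not given here, so no trait of gene ends can be read from them.

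Deposited peak values at gene-end regions were higher in Y541S than in WT libraries before ranking. The authors' median fold enrichment was 5.09 and 5.38 in Y541S ERα, against 4.18 and 4.44 in WT ERα, and 6.09 and 6.58 in Y541S PR, against 3.55 and 5.76 in WT PR. At distal regions it was 5.15 and 4.62 in Y541S ERα, against 4.42 and 4.21 in WT ERα, and 7.9 and 6.78 in Y541S PR, against 4.4 and 6.12 in WT PR. At both kinds of region the genotypes did not overlap within a receptor. These values were not scaled between libraries, the Y541S lists were also longer, with 101382 to 113695 peaks against 64488 to 93491, and genotype cannot be told apart here from the yield of each precipitation. A −log10 p of 10 or more in all 8 libraries was reached by 174 gene-end regions (3.25%) and 591 distal regions (8.9%).

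Relative to other regions, no shift of the gene-end regions between genotypes was resolved. The rank difference between gene-end and distal regions averaged 13 ± 15.6 points in Y541S ERα and 3.87 ± 12.7 in WT ERα, and −14.9 ± 17.3 in Y541S PR and −16.2 ± 12.9 in WT PR (SD, n = 2 each). The difference between genotypes was 9.15 points for ERα (exact permutation p 0.667) and 1.27 for PR (exact permutation p 1.0), and 2 against 2 libraries cannot give less than 0.333. Within replicates 1 and 2 it was 7.14 and 11.2 points for ERα, and −1.8 and 4.33 for PR. The genotype difference in ERα minus that in PR was 7.88 points (exact permutation p 0.667). Without Y541S ERα replicate 2 the value for ERα was −1.87, and that for PR was −10.9 without Y541S PR replicate 2 and −7.88 without WT PR replicate 1.

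The share of the strongest peaks gave a similar picture. It averaged 30.7% ± 6.34 in Y541S ERα and 24.6% ± 8.7 in WT ERα, and 6.21% ± 5.67 in Y541S PR and 6.25% ± 4.6 in WT PR (SD, n = 2 each). The difference was 6.16 points for ERα (exact permutation p 0.667) and −0.04 for PR (exact permutation p 1.0), and 7.83 and 4.5 within replicates 1 and 2 for ERα and −0.8 and 0.72 for PR. With 1 library left out the ERα value ran from 0.015 to 12.3 points, and the PR value was 3.97 without Y541S PR replicate 1 and 3.21 without WT PR replicate 2.

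Of single gene-end regions, 0 shifted between genotypes for either receptor at an adjusted p of 0.05 in limma, and 0 had a genotype shift that differed between the receptors. The smallest adjusted p was 0.677 for ERα. At an unadjusted p under 0.05 in limma, 207 regions (3.87%) were higher and 85 (1.59%) lower in Y541S for ERα, and 93 (1.74%) and 76 (1.42%) for PR. Over all 11983 regions the shares were 3.02% higher and 3.33% lower for ERα, and 1.5% and 1.75% for PR. Among distal regions 155 were higher and 314 lower for ERα. The median shift of gene-end regions for ERα was 0.121, against 0.011 over all regions, and for PR it was 0.046, against 0.007.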

How the data were processed

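ERα and PR ChIP-seq peak lists of 8 libraries of mouse mammary glands were used, 2 for each receptor and genotype. Chromatin was sheared to 300 to 500 bp and 30 µg was precipitated with 4 µg of antibody, per the labels' protocols. Coordinates are on mm10, as the submitters' processing notes state. The aligner and the peak caller are not given in the sources used here. The authors deposited a list for each library, without pooling replicates. Each deposited peak has a whole-number score, a fold enrichment (a ratio of coverage to local expectation), a −log10 p-value and a −log10 q-value, which are the authors' values, and every −log10 p is at least 2. Scores and −log10 q were used only to check and filter peaks.

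Overlapping peaks (1 bp or more) were merged, and gene starts and ends came from a RefSeq table of GRCm38.p6. The summit coverage and local expectation were recovered from each deposited fold and −log10 p within 0.0001 on −log10 p, for 100% of peaks, and the 0.001 quantile of the expectation gave the background coverage, 0.927 to 2.68 per library. Depth is otherwise unknown. Ranks were normal-scored and fitted with limma 3.58.1 in R 4.3.3, with means of 4 groups, 4 residual degrees of freedom and Benjamini-Hochberg adjustment over 11983 regions, after the step had been tested on simulated data. Library values were compared with two-sided exact permutation tests (Python 3.11.15, numpy 2.4.6). The labels speak of biological replicates without saying how many animals each held, so p-values measure the spread between these libraries. P-values across receptors take ERα and PR libraries as independent, which does not hold if they shared chromatin. Deviations of replicates from their group means correlated between groups at 0.12 to 0.208 in all 6 pairs of groups, each above 0.1. Replicate numbers were therefore taken to pair the libraries, but only for the within-replicate values and the replicate block. The main limma fit and the other permutation tests did not use this pairing.

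The regions, the 20 gene lists (447 genes, 471 of 476 entries matched by symbol, 1 by synonym and 4 not autosomal coding) and the tests were chosen with earlier results of these data known. Named genes were those at the 10 best-ranked regions, the up to 10 largest called shifts per direction, the 3 best-ranked genes per list, Esr1, Pgr, Greb1, Areg, Tnfsf11 and Wnt4, and the regions nearest the 1 kb limit. Other genes named within a count were picked once their values were known. Alternatives changed the distance, the peak threshold, the ranking value, the transformation, the midpoint, the number of strongest peaks, predicted genes, the replicate block and each library in turn.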

Additional observations from a re-analysis of the deposited data

How the results depend on the processing

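With peaks of −log10 p of at least 5 there were 2832 gene-end regions and 171 of them were ERα-higher. The share of the strongest peaks differed between genotypes for PR by 0.02 points with a distance of 500 bp or the summit in place of the midpoint and by 0.16 with 5000 peaks, against −0.04, all far below the spread between replicates. With a replicate block, receptor being swapped only within genotype and replicate number, an alternative chosen after seeing the data, the receptor difference of that share, 21.4 points, had 0.125 as its exact permutation p. The replicate block in limma gave 499 ERα-higher and 174 PR-higher regions, which included all 365 and 140, and changed no other call. Under the other alternatives and results, 147 values kept their direction and their side of the threshold.

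With 1 library left out, the gene-end regions numbered 5341 to 6590, the ERα-higher ones 120 to 359 and the PR-higher ones 77 to 144, and genotype shifts stayed at 0. The rank difference between receptors was 18.8 to 28.5 points, between genotypes −1.87 to 20.2 for ERα, −10.9 to 13.5 for PR and −0.896 to 11.3 for both. The share of strongest peaks differed by 18.9 to 24.5 points between receptors and by 0.015 to 12.3 for ERα, −4.05 to 3.97 for PR and −0.0125 to 6.14 for both between genotypes. The start-minus-end difference was 2.54 to 12.0. Summit coverage of the gene-end regions, a median of 14 to 32 per library, limits the precision of each rank. The causes were not tested.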
